A study of Mus musculus with 12 samples.

Results

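The 34 genes described here mark macrophages and other myeloid cells, and they were chosen by name, without a threshold on any value: Adgre1, Csf1r, Cd68, C1qa, C1qb, C1qc, Mrc1, Lyz2, Cd14, Fcgr3, Fcgr2b, Fcer1g, Tyrobp, Trem2, Cx3cr1, Ccr2, Itgam, Itgb2, Ptprc, Laptm5, Aif1, Ctss, Cd163, Msr1, Mpeg1, Lgmn, Stab1, Folr2, Apoe, Pf4, Spi1, Csf3r, S100a8 and S100a9. The choice of these genes, and of the lists set beside them below, was made with earlier results of these data known. The shares of all genes given beside the counts are therefore for scale and are no test. The members are 34 of 35896 genes with a value in the files, and 31 of them were among the 12052 genes tested. The genes were measured in the whole uterus of wild-type Swiss Webster female mice aged 8 to 12 weeks, an outbred strain, by 3′ TagSeq, a method that reads short tags near the 3′ end of polyadenylated RNA. Each of the 4 stages of the estrous cycle had 3 samples: proestrus (replicates 1, 2 and 3), estrus (3, 4 and 5), metestrus (5, 6 and 7) and diestrus (3, 4 and 5). The labels give no treatment, so by label the groups differ only in the stage of the cycle. How the stage was scored is not given in the sources used here, nor whether each sample is 1 animal, so the p-values measure only the spread between these samples.

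Macrophages are resident and blood-derived phagocytes that clear dying cells, present antigen and release cytokines. Their survival depends on the receptor encoded by Csf1r, and their identity on the transcription factor PU.1, encoded by Spi1. In the cycling uterus, estrogen and progesterone alternate in control of the epithelium, stroma and resident leukocytes, and macrophages are among the most common leukocytes of the endometrium and muscle wall.

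The libraries held between 1652841 and 2200563 estimated counts each, and levels are given as CPM, counts scaled to a common library size, after TMM scaling, an adjustment for differences in library composition. In these libraries 3 counts corresponded to between 1.37 and 1.89 CPM. Esr1, Pgr, Hoxa10, Hoxa11 and Msx1 were looked up as genes of the uterus, and all 5 passed the filter on low counts and were tested. No other tissue was compared, so this does not check the uterine label. Of the 34 members, 22 stood above the filter level of 5.42 CPM in all 12 samples, and 2 tested members stood above it in every sample of 1 stage alone. S100a8 and S100a9 were tested though they stood above it in only 3 samples, of estrus and diestrus. Cd163, Msr1 and Csf3r did not pass the filter and are given as levels only. Since the tissue was sequenced whole, fewer myeloid cells and less RNA of these genes per cell cannot be told apart in any result below.

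The members were lowest in proestrus and highest in estrus for the most part. The mean level was highest in estrus for 23 of the 31 tested members, where 32.8% of all tested genes had their highest mean, and lowest in proestrus for 23, against 27.0% of all tested genes. The F test over the 4 stages called 22 of the 31 members at an adjusted p under 0.05 (edgeR's quasi-likelihood test, Benjamini-Hochberg adjustment over all genes tested), beside 23.2% of all genes. Summed over the members, the level ran from 1359 to 1450.4 CPM in proestrus, 2804 to 3209 in estrus, 2127 to 3402 in metestrus and 2317 to 3194 in diestrus. Apoe made up a large part of that sum. Without it the sums were 813 to 917, 1894 to 2114, 1054 to 1874 and 1076 to 1474 CPM in the same order, so that every estrus sample stood above every sample of the other stages.

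**Figure D1:**
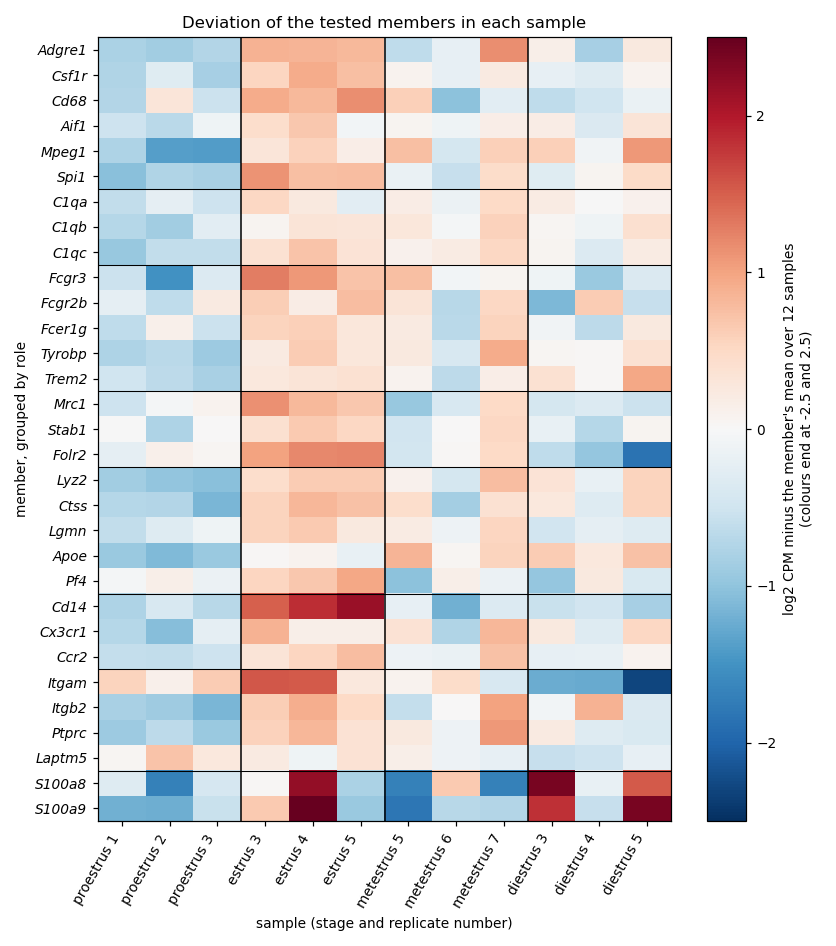
Each cell is the log2 CPM of 1 tested member (rows, grouped by role) in 1 sample (columns) minus the mean of that member over the 12 samples. Of the 31 members, 29, 25 and 25 lie below their own mean in proestrus replicates 1, 2 and 3, and 31, 30 and 26 above it in estrus replicates 3, 4 and 5. Itgam and Laptm5 lie above their means in all 3 proestrus samples.

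Between proestrus and estrus, 21 of the 31 tested members rose and 0 fell, where 9.67% of all genes tested were called higher in estrus and 7.46% lower. The 21 were Adgre1, Csf1r, Cd68, C1qa, C1qb, C1qc, Mrc1, Lyz2, Cd14, Fcgr3, Tyrobp, Trem2, Ccr2, Itgb2, Ptprc, Ctss, Mpeg1, Lgmn, Folr2, Apoe and Spi1. The log2 fold change lay above 0 for 30 of the 31, with a median of 1.20 beside a median of 0.016 over all genes. For 25 members all 3 estrus samples stood above all 3 proestrus samples, which held for 20.9% of all genes. In 14 of the 21 the call was kept when any of the 12 samples was left out, and the other 7 (Cd68, C1qa, C1qb, Mrc1, Trem2, Itgb2 and Folr2) lost it in 4 to 8 of the 12 such fits, with an adjusted p of up to 0.194. The count was lowest, at 14, without proestrus replicate 1 and without estrus replicate 4.

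From estrus to metestrus, 3 members fell (Csf1r, Mrc1 and Cd14) and 0 rose, where 4.73% of all genes were called lower in metestrus and 2.83% higher. The median log2 change was -0.45 beside 0.011 over all genes. The count was 1 without estrus replicate 4 and 7 without metestrus replicate 7. From metestrus to diestrus, edgeR called 0 members, where 0.133% of all genes were called higher and 0.0913% lower. In that comparison 7 members had an unadjusted p under 0.05, and DESeq2 called 1 member. The matching shares of all genes were not counted, so these numbers cannot be read against them.

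Diestrus and estrus differed for 12 members. Csf1r, Cd68, Mrc1, Cd14, Fcgr3, Ccr2, Itgam, Laptm5, Lgmn, Folr2 and Pf4 were lower in diestrus and Apoe was higher, which makes 11 lower and 1 higher where 13.0% of all genes were called lower and 9.72% higher. The median log2 change was -0.62 beside 0.001 over all genes. For 18 members all 3 diestrus samples stood below all 3 estrus samples, which is 22.4% for all genes. The call was kept in every leave-out fit for 8 of the 12, and Ccr2, Laptm5, Apoe and Pf4 lost it in 6 to 8 fits, with an adjusted p of up to 0.165. This comparison and that of estrus with proestrus share the 3 estrus samples.

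Closing the cycle from diestrus to proestrus, 8 members fell and 2 rose, where 3.91% of all genes were called lower in proestrus and 4.62% higher. C1qb, C1qc, Lyz2, Tyrobp, Trem2, Ctss, Mpeg1 and Apoe were the 8 lower ones, and Itgam and Laptm5 the 2 higher ones. Lyz2, Itgam, Mpeg1 and Apoe kept their calls in every leave-out fit. The other 6 lost theirs in 3 to 8 fits, and the count fell to 4 without proestrus replicate 2 or without diestrus replicate 3, to 5 without proestrus replicate 1 or diestrus replicate 5, and to 6 without proestrus replicate 3. Metestrus stood above proestrus for 7 members (C1qb, C1qc, Lyz2, Tyrobp, Ptprc, Mpeg1 and Apoe) and below it for 0, where 2.49% of all genes were called higher and 1.82% lower. Among these, Apoe alone kept its call in every leave-out fit, and the other 6 lost theirs with the 2 stages fitted alone (adjusted p from 0.0565 to 0.116). The count was 1 without proestrus replicate 2, 2 without proestrus replicate 1 or metestrus replicate 7, 3 without proestrus replicate 3 and 13 without metestrus replicate 6.

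**Figure D2:**
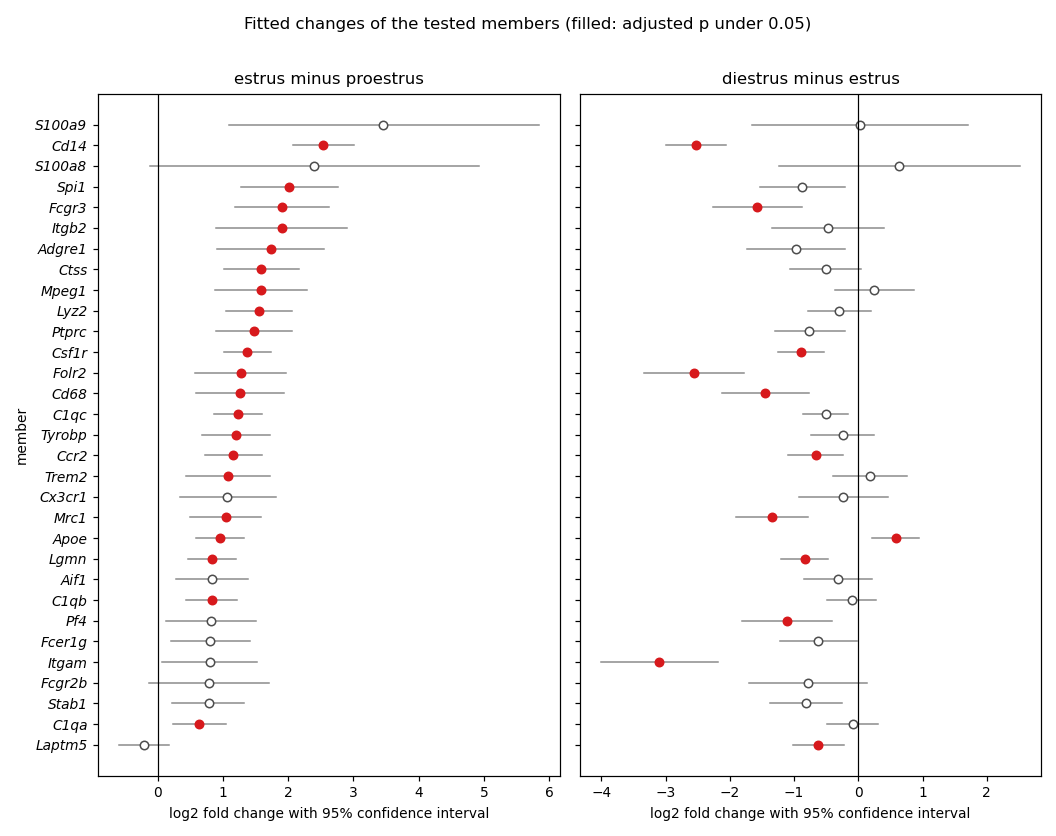
Points are the fitted log2 fold changes of the 31 tested members between estrus and proestrus (left) and between diestrus and estrus (right). Bars are approximate 95% intervals, set by normal limits on the SE, which are narrower than those of the test. A bar that leaves out 0 is therefore not a call, and filled points passed an adjusted p of 0.05. The left points lie to the right of 0 apart from Laptm5, while the right points range from -3.10 for Itgam to 0.64 for S100a8.

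The promoters of 5 members are shown because these genes stand for the courses described below: C1qb, Ctss and Mpeg1 were higher in estrus and in diestrus than in proestrus, Cd68 rose in estrus and was lower again in diestrus, and Itgam was at its lowest in diestrus. Each is the 250 bases before the RefSeq start site (GRCm38.p6), 5′ to 3′ on the strand of the gene. The letters in capitals are GAGGAA or its other strand, TTCCTC, a core bound by ETS factors of the PU.1 type.
C1qb, chr4:136886201-136886450 (minus strand), Ctss, chr3:95526536-95526785 (plus strand), Mpeg1, chr19:12460520-12460769 (plus strand), Cd68, chr11:69666171-69666420 (minus strand), and Itgam, chr7:128062390-128062639 (plus strand), lie outside the annotated span of their own genes.
C1qb: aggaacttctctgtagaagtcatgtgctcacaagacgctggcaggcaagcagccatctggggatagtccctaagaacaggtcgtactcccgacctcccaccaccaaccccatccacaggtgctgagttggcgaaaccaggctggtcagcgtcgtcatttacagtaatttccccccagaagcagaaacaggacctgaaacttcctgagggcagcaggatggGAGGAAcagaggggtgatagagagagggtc
Ctss: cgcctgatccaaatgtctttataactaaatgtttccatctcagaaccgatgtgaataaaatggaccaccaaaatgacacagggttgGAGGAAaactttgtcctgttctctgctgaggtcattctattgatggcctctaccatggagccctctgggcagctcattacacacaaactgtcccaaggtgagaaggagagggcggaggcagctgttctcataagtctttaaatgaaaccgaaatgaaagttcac
Mpeg1: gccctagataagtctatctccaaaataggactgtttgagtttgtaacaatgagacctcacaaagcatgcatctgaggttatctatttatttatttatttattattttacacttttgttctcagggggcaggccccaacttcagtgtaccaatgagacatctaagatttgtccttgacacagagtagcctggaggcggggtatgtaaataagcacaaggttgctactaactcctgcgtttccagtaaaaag
Cd68: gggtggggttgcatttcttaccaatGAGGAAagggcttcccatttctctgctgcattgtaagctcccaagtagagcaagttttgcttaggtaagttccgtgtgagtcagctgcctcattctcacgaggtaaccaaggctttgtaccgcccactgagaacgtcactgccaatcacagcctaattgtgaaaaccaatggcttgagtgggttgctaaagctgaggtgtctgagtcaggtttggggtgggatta
Itgam: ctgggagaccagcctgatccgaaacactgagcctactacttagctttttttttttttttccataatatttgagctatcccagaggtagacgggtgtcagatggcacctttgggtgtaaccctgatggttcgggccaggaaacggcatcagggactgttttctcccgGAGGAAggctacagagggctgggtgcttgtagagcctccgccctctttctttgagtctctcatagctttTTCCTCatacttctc
The core was found once in C1qb, Ctss and Cd68, in 2 places in Itgam and nowhere in the Mpeg1 window. RefSeq start sites were matched for 26 of the 34 members, with 32 windows in all. GAGGAA stood on either strand in 18 of those 32 windows (56.2%), and in 23.3% of the 32851 windows of the same length over all genes. The C/EBP palindrome TTGCGCAA stood in 0 of the 32 and in 0.164% of all windows. These are letter matches, and no binding was measured.

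Among the lineage and identity genes, 5 of 6 rose from proestrus to estrus. Csf1r, the receptor for the growth factors CSF1 and IL-34, measured 50.2, 69.5 and 47.7 CPM in the proestrus samples, 124, 163 and 146 in estrus, 90.8, 74.5 and 101 in metestrus and 74.3, 67.7 and 91.1 in diestrus. All estrus samples stood above all others, and no proestrus sample reached the lowest metestrus value. The rise was 1.37 ± 0.18 on the log2 scale (SE, adjusted p = 0.000543), and diestrus was lower than estrus by a log2 change of -0.89 ± 0.18 (adjusted p = 0.00316). The step from estrus to metestrus, -0.70 ± 0.18 (adjusted p = 0.0313), did not hold in 3 of 12 leave-out fits, which gave an adjusted p of 0.135 without estrus replicate 4, 0.117 without metestrus replicate 6 and 0.0978 without estrus replicate 5. With estrus and metestrus fitted alone the adjusted p was 0.0801.

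Spi1, which encodes PU.1, the master regulator of myeloid fate, gave 2.85, 3.77 and 3.55 CPM in proestrus, 16.7, 12.6 and 12.8 in estrus, 6.22, 4.42 and 10.1 in metestrus and 5.48, 7.41 and 10.2 in diestrus. The proestrus values of Spi1 rest on 5.0, 7.0 and 7.0 estimated counts. Every proestrus sample lay below every sample of the other stages, and the change to estrus was 2.02 ± 0.38 (adjusted p = 0.00378). Adgre1, which encodes F4/80, the surface protein used to define mouse macrophages, gave 9.70, 9.16 and 10.1 CPM in proestrus and 32.8, 32.6 and 31.6 in estrus. It then spread to 10.9, 15.1 and 40.5 in metestrus and to 19.4, 9.39 and 20.9 in diestrus. The estrus rise of Adgre1 was 1.73 ± 0.42 (adjusted p = 0.0135), and metestrus replicate 7 stood above all estrus samples while the other metestrus samples lay near proestrus.

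Mpeg1, which encodes the pore-forming protein perforin-2 of phagocytes, stood above proestrus in all later stages: it measured 17.7, 11.3 and 11.2 CPM in proestrus, 39.0, 46.9 and 34.8 in estrus, 53.4, 22.7 and 47.7 in metestrus and 47.4, 29.2 and 67.4 in diestrus. Proestrus lay below the other 9 samples, and was lower than diestrus by a log2 change of -1.84 ± 0.35 (adjusted p = 0.00601). Cd68, a lysosomal glycoprotein of macrophages, averaged 21.3 ± 9.18 CPM (SD, n = 3) in proestrus, 51.1 ± 6.71 in estrus, 23.9 ± 13.7 in metestrus and 18.8 ± 3.45 in diestrus, and it rose to estrus by 1.26 ± 0.34 (adjusted p = 0.0239) and fell by diestrus (-1.45 ± 0.35, adjusted p = 0.00903). Aif1, the calcium-binding protein IBA1, followed the same order between proestrus (10.5 ± 2.39 CPM) and estrus (19.0 ± 4.90) without overlap, but its change of 0.83 ± 0.28 did not pass (adjusted p = 0.0586).

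**Figure D3:**
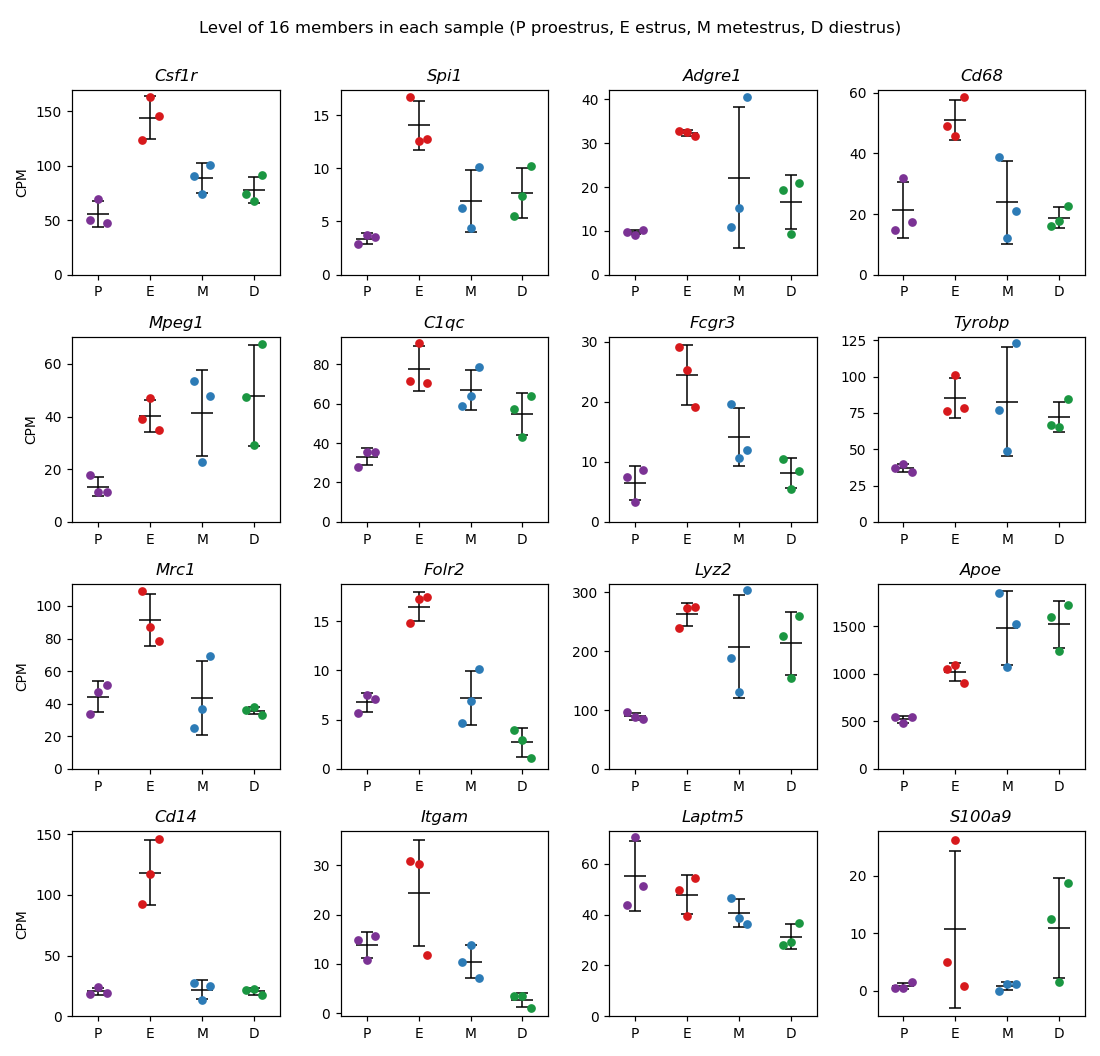
Points are the CPM of 16 members in each of the 12 samples, with the mean as a long bar and the SD over 3 samples as the error bar, on axes that include 0. Cd14 stands high in estrus alone, Apoe and Mpeg1 stay high after estrus, Itgam and Folr2 reach their lowest values in diestrus, and Laptm5 starts highest in proestrus.

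The 3 chains of C1q, the recognition molecule of the classical complement pathway and a product of tissue macrophages, are encoded side by side on chromosome 4 between positions 136880129 and 136898803 (GENCODE M21). C1qc measured 28.0, 35.6 and 35.5 CPM in proestrus, 71.8, 90.9 and 70.5 in estrus, 59.1, 63.8 and 78.7 in metestrus and 57.3, 43.0 and 64.0 in diestrus. It rose by 1.23 ± 0.19 into estrus (adjusted p = 0.00115), and all proestrus samples lay below the other 9. C1qb averaged 60.9 ± 13.9, 108 ± 10.3, 113 ± 24.1 and 101 ± 19.0 CPM from proestrus through diestrus and rose by 0.83 ± 0.20 (adjusted p = 0.0134). C1qa gave 41.6, 54.4 and 44.7 CPM in proestrus, 92.2, 76.1 and 53.1 in estrus, 73.1, 58.1 and 90.6 in metestrus and 74.3, 63.8 and 68.5 in diestrus. Estrus replicate 5 of C1qa overlapped proestrus, and its change of 0.64 ± 0.21 (adjusted p = 0.0491) lost its call in 8 of 12 leave-out fits, with DESeq2 (adjusted p = 0.055), with DESeq2's size factors (0.0524) and with library totals (0.0509). From estrus to diestrus none of the 3 chains passed. The log2 changes were -0.09 (approximate 95% interval -0.49 to 0.31) for C1qa, -0.10 (-0.48 to 0.28) for C1qb and -0.51 (-0.86 to -0.16, adjusted p = 0.0561) for C1qc.

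Of the 5 Fc receptor and adaptor genes, Fcgr3, Tyrobp and Trem2 rose in estrus, and Fcer1g and Fcgr2b did not pass. Fcgr3, an activating receptor for immunoglobulin G, measured 7.42, 3.23 and 8.63 CPM in proestrus, 29.1, 25.2 and 19.2 in estrus, 19.7, 10.7 and 11.9 in metestrus and 10.5, 5.44 and 8.49 in diestrus. Its rise was 1.91 ± 0.37 (adjusted p = 0.00405), and by diestrus it had fallen by 1.58 on the log2 scale (SE 0.35, adjusted p = 0.0062). The inhibitory receptor gene Fcgr2b averaged 7.82 ± 2.66, 13.5 ± 2.93, 9.86 ± 4.25 and 7.83 ± 5.74 CPM over the 4 stages, with a change into estrus of 0.78 ± 0.47 (adjusted p = 0.288). The difference between the changes of Fcgr3 and Fcgr2b was not tested.

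Tyrobp, the signalling adaptor DAP12, averaged 37.0 ± 2.95 CPM in proestrus and 85.2 ± 13.9 in estrus, and stayed at 82.9 ± 37.8 in metestrus and 72.1 ± 10.6 in diestrus. It rose by 1.20 ± 0.27 (adjusted p = 0.00832). Trem2, a lipid-sensing receptor that signals through DAP12, averaged 7.03 ± 0.948, 14.9 ± 0.672, 10.8 ± 3.39 and 17.0 ± 6.11 CPM, and its change into estrus of 1.08 ± 0.33 (adjusted p = 0.0361) lost its call in 6 of 12 leave-out fits and with DESeq2 (adjusted p = 0.0552). Fcer1g, the shared gamma chain of Fc receptors, averaged 26.1 ± 8.22, 46.2 ± 5.49, 35.8 ± 14.5 and 30.1 ± 9.42 CPM, and its change into estrus was 0.81 ± 0.31 (adjusted p = 0.0872, but 0.0489 without the filter on low counts and 0.017 with these 2 stages alone).

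Of the scavenger and endocytic receptor genes, Mrc1 and Folr2 rose in estrus and fell again by diestrus. Folr2, a folate receptor of resident macrophages, measured 5.70, 7.55 and 7.10 CPM in proestrus, 14.8, 17.2 and 17.4 in estrus, 4.67, 6.94 and 10.1 in metestrus and 3.99, 2.97 and 1.13 in diestrus. The diestrus values rest on 8.0, 6.0 and 2.0 estimated counts. Estrus stood above and diestrus below all other samples, and diestrus differed from estrus by -2.56 ± 0.40 (adjusted p = 0.000658). Mrc1, the mannose receptor CD206, gave 33.7, 47.4 and 51.8 CPM in proestrus, 109, 86.9 and 78.3 in estrus, 24.9, 36.6 and 69.2 in metestrus and 35.9, 38.1 and 33.4 in diestrus. Its 3 estrus samples stood above the other 9, with a change of 1.04 ± 0.28 into estrus (adjusted p = 0.0229) and of -1.35 ± 0.28 from estrus to diestrus (adjusted p = 0.00445). The change from estrus to metestrus, -1.07 ± 0.28 (adjusted p = 0.0362), lost its call in 8 of 12 leave-out fits, up to an adjusted p of 0.12 without metestrus replicate 6, and with the 2 stages fitted alone (adjusted p = 0.129).

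Stab1, a clearance receptor also made by endothelium, averaged 22 ± 6.48, 37.8 ± 3.28, 27.2 ± 9.77 and 21.6 ± 5.96 CPM and passed in no comparison over the 4 stages together. With 2 stages fitted alone it passed between proestrus and estrus (adjusted p = 0.0256) and between estrus and diestrus (0.0167, and 0.0423 without the filter on low counts). Cd163, the haemoglobin scavenger receptor, ranged from 0 to 1.86 CPM with 19 counts over all 12 samples, and no library held more than 3.07 counts. Msr1, a scavenger receptor for modified lipoproteins, ranged from 1.37 to 6.29 CPM. At this depth neither can be compared between stages.

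Of the 5 lysosomal and secreted products, Lyz2, Ctss, Lgmn and Apoe rose into estrus. Lyz2, the lysozyme of myeloid cells, measured 96.4, 88.4 and 84.2 CPM in proestrus, 239, 273 and 275 in estrus, 188, 131 and 303 in metestrus and 225, 154 and 260.3 in diestrus. No proestrus sample reached any other, and the rise was 1.55 ± 0.26 (adjusted p = 0.00195). Diestrus and estrus differed by -0.30 (approximate 95% interval -0.79 to 0.19). Ctss, a cysteine protease of antigen processing, gave 51.3, 51.2 and 38.1 CPM in proestrus, 127, 153 and 142 in estrus, 116, 47.3 and 113 in metestrus and 103, 67.7 and 127 in diestrus. Metestrus replicate 6 of Ctss fell back among the proestrus samples, and the rise into estrus was 1.59 ± 0.30 (adjusted p = 0.00358).

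Lgmn, the lysosomal protease legumain, gave 122, 149 and 173 CPM in proestrus, 274, 296 and 222 in estrus, 215, 171 and 271 in metestrus and 135, 161 and 149 in diestrus. Estrus stood above proestrus and diestrus without overlap, by 0.84 ± 0.18 (adjusted p = 0.00828) and with a change of -0.83 ± 0.18 towards diestrus (adjusted p = 0.00571). Apoe, a lipid carrier made by macrophages and by other cells of the tissue, measured 545, 481 and 544 CPM in proestrus, 1050.4, 1095 and 909.6 in estrus, 1854, 1074 and 1528 in metestrus and 1604, 1242 and 1721 in diestrus. Proestrus lay below every other sample and diestrus above every estrus sample. Proestrus was lower than diestrus by a log2 change of -1.54 ± 0.19 (adjusted p = 0.000367), whereas the further step from estrus to diestrus, 0.58 ± 0.19 (adjusted p = 0.0406), lost its call in 8 of 12 leave-out fits. Pf4, a chemokine of platelets and some macrophages, averaged 10.6 ± 1.14, 18.6 ± 3.04, 8.73 ± 3.73 and 8.59 ± 3.98 CPM, and its change from estrus to diestrus was -1.11 ± 0.36 (adjusted p = 0.038, lost in 7 of 12 leave-out fits).

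Cd14, the co-receptor that hands lipopolysaccharide to TLR4, had the smallest p of the members in the F test. It measured 18.3, 23.7 and 19.3 CPM in proestrus, 92.2, 117 and 146 in estrus, 27.5, 13.3 and 25.0 in metestrus and 21.4, 22.7 and 17.5 in diestrus. The lowest estrus sample stood well above the highest sample of any other stage, and the 9 other samples overlapped one another. The change was 2.54 ± 0.24 into estrus (adjusted p = 6.74e-05), -2.42 ± 0.24 into metestrus (adjusted p = 0.000153) and -2.52 ± 0.24 from estrus to diestrus (adjusted p = 2e-05), and each was called in every leave-out fit.

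Ccr2, the receptor that draws monocytes from the blood, averaged 35.4 ± 1.39, 78.9 ± 12.7, 61.8 ± 23.9 and 50 ± 5.74 CPM. It rose by 1.16 ± 0.22 (adjusted p = 0.00437), and the change from estrus to diestrus was -0.66 ± 0.22 (adjusted p = 0.0419, lost in 8 of 12 leave-out fits and with library totals, 0.0524). Cx3cr1, the fractalkine receptor, averaged 19.4 ± 6.01, 41.3 ± 13.0, 37.7 ± 19.0 and 34.9 ± 10 CPM, and its change into estrus of 1.07 ± 0.38 did not pass with edgeR (adjusted p = 0.0644). It passed with DESeq2 (adjusted p = 0.0442), without the filter on low counts (0.0165) and with these 2 stages fitted alone (0.0128).

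Of the 4 leukocyte surface genes, Ptprc and Itgb2 rose into estrus and Itgam and Laptm5 did not pass. Ptprc, the pan-leukocyte antigen CD45, measured 16.5, 19.9 and 16.2 CPM in proestrus, 48.3, 57.8 and 41.7 in estrus, 38.4, 29.0 and 69.2 in metestrus and 37.4, 25.2 and 24.3 in diestrus. Its proestrus samples lay below the other 9, with a rise of 1.48 ± 0.30 (adjusted p = 0.00492). Itgb2, the shared beta-2 integrin chain CD18, averaged 3.06 ± 0.466, 11.6 ± 1.88, 8.67 ± 5.58 and 8.31 ± 4.42 CPM, and its rise of 1.90 ± 0.51 (adjusted p = 0.0222) lost its call in 4 of 12 leave-out fits. The proestrus values of Itgb2 rest on 6.0, 6.0 and 5.0 estimated counts.

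Itgam, the integrin chain CD11b of macrophages, monocytes and granulocytes, measured 14.8, 10.8 and 15.7 CPM in proestrus, 30.9, 30.3 and 11.9 in estrus, 10.4, 13.9 and 7.15 in metestrus and 3.49, 3.46 and 1.13 in diestrus. The diestrus values rest on 7.0, 6.86 and 2.0 estimated counts. Diestrus lay below every other sample, and estrus replicate 5 stood with proestrus rather than with the other estrus samples. Diestrus differed from estrus by -3.10 ± 0.46 (adjusted p = 0.000492), and proestrus was 2.30 ± 0.49 higher than diestrus (adjusted p = 0.00954), while the change from proestrus to estrus was 0.80 ± 0.37 (adjusted p = 0.161). Laptm5, a lysosomal protein of blood cells, had its highest mean in proestrus: it averaged 55.3 ± 13.8, 47.8 ± 7.66, 40.5 ± 5.44 and 31.3 ± 4.80 CPM. The change from proestrus to estrus was -0.21 ± 0.20 (adjusted p = 0.522), and diestrus was lower than estrus by a log2 change of -0.62 ± 0.20 (adjusted p = 0.0433), a call that was lost in 6 of 12 leave-out fits, with library totals in place of TMM (adjusted p = 0.0821), without the filter on low counts (0.0654) and with DESeq2 (0.0673).

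The granulocyte genes had high values in a few samples of estrus and diestrus. S100a9, a calcium-binding protein stored in neutrophils, gave 0.570, 0.539 and 1.52 CPM in proestrus, 4.95, 26.3 and 0.916 in estrus, 0, 1.26 and 1.19 in metestrus and 12.5, 1.48 and 18.7 in diestrus. Its partner S100a8 gave 1.71, 0 and 1.52 CPM in proestrus, 2.47, 14.9 and 0.916 in estrus, 0, 4.42 and 0 in metestrus and 17.0, 1.98 and 9.06 in diestrus. Estrus replicate 4 and diestrus replicates 3 and 5 were the high samples for both genes, and most other values were at or under the level of 3 counts. Both genes stood above the filter level of 5.42 CPM in these 3 samples only. They were therefore tested only through the values that set these samples apart, and the calls below carry that limit. The S100a9 call is among the 22 of the F test. With edgeR neither passed in any comparison of 2 stages, and S100a9 passed the F test (adjusted p = 0.0458), a call that 9 of 12 leave-out fits lost. DESeq2 called S100a9 between estrus and proestrus (adjusted p = 0.0177), metestrus and estrus (0.0285) and proestrus and diestrus (0.0252). Without the filter on low counts, edgeR called S100a9 in these comparisons and between diestrus and metestrus (adjusted p from 0.00808 to 0.0291), and S100a8 between proestrus and diestrus (0.0349). Csf3r, the receptor for granulocyte colony-stimulating factor, ranged from 0 to 5.09 CPM with 41 counts over all samples and was not tested.

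The members spread more within metestrus and diestrus than within the other stages. The median coefficient of variation over the tested members was 17.5% in proestrus, 16% in estrus, 39.5% in metestrus and 27.5% in diestrus, where the medians over all tested genes were 16.6%, 17.0%, 23.2% and 17.1%. In metestrus, replicate 7 was the highest sample for 20 of the 31 members and replicate 6 the lowest for 20 (34.6% and 33.1% of all genes). In diestrus, replicate 5 was highest for 19 members and replicate 4 lowest for 18 (33.7% and 35.8% of all genes).

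Of 31 further macrophage genes that are not members (22 tested), 8 rose from proestrus to estrus and 0 fell, with a median log2 change of 1.06, and 6 were lower and 1 higher in diestrus than in estrus. Cybb, the catalytic chain of the phagocyte NADPH oxidase, averaged 16.9 ± 3.09, 80.5 ± 6.44, 40.7 ± 12.5 and 48.9 ± 14.5 CPM over the 4 stages and rose by 2.24 ± 0.26 (adjusted p = 0.000296). Cbr2, a carbonyl reductase found in macrophages and in epithelium, averaged 631 ± 176 and 655 ± 74.0 CPM in proestrus and estrus and 114 ± 91.6 and 95.5 ± 34.4 in metestrus and diestrus, and fell from estrus to diestrus (-2.77 ± 0.47, adjusted p = 0.00111). Fcgr1, the high-affinity receptor for immunoglobulin G, rose by 1.80 ± 0.37 (adjusted p = 0.00546). The sums of the full list were 866 to 1176, 1221 to 1397, 502 to 718 and 502 to 673 CPM from proestrus through diestrus. Proestrus thus stood above metestrus and diestrus, and Cbr2 made up a large part of the proestrus and estrus sums. Summed without Cbr2, this list ran from 313 to 359 CPM in proestrus, 619 to 688 in estrus, 411 to 631 in metestrus and 379.6 to 565 in diestrus.

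Among 23 ligands and recruitment factors (15 tested), 6 rose into estrus and 0 fell (9.67% and 7.46% of all genes). In diestrus, 7 were lower than in estrus and 0 higher (13.0% and 9.72% of all genes). Cxcl1, Cxcl2 and Cxcl5 are counted in both, and their means outside estrus lay under the filter level of 5.42 CPM. They were tested through their estrus values and could hardly be called in the other direction. Cxcl5, a neutrophil-attracting chemokine, averaged 1.32 ± 1.84, 60.6 ± 47.1, 1.68 ± 0.789 and 0.921 ± 1.19 CPM, and Cxcl2, a chemokine of the same group, 20.4 ± 9.16 CPM in estrus with 0 counts in all proestrus and diestrus samples. Ccl11, or eotaxin, which draws eosinophils, had its highest mean in proestrus and its lowest in diestrus, at 34.5 ± 3.93, 24.5 ± 9.89, 10 ± 5.54 and 4.13 ± 0.274 CPM (proestrus minus diestrus 3.04 ± 0.42, adjusted p = 0.000738). Csf1, the main ligand of the Csf1r receptor, averaged 13.0 ± 2.91, 17.9 ± 8.34, 18.7 ± 5.16 and 18.1 ± 0.668 CPM and passed in no comparison.

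Of 12 other transcription factors of the myeloid lineage (11 tested), 3 rose and 1 fell from proestrus to estrus, and 5 were lower in diestrus than in estrus. Maf averaged 311 ± 18.6, 1017 ± 76.7, 438 ± 178 and 286 ± 31.8 CPM, with a change from estrus to diestrus of -1.83 ± 0.22 (adjusted p = 0.000113). Cebpb averaged 110.1 ± 11.2, 137 ± 15.4, 73.5 ± 11.7 and 37.6 ± 7.27 CPM, with a change from estrus to diestrus of -1.86 ± 0.17 (adjusted p = 1.73e-05). Klf4 was highest in proestrus (442 ± 102 CPM) and lowest in diestrus (82.8 ± 13.4, proestrus minus diestrus 2.41 ± 0.25, adjusted p = 0.000105). These factors are also made outside the myeloid lineage.

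Markers of other cells moved through the cycle as well. Of 20 neutrophil genes 5 were tested, and Ngp, Elane, Fpr1, Fpr2, Trem1, Cd177 and Clec4d were at or under 3 counts in every library. The neutrophil sum lay between 1148 and 1965 CPM in proestrus, 5657 and 9209.6 in estrus, 148 and 2255 in metestrus and 44.5 and 229.8 in diestrus, but Lcn2 and Ltf, which uterine epithelium also secretes, made up most of it. Without those genes it ran from 16.7 to 40.6 CPM in proestrus, 35.3 to 65.8 in estrus, 20.7 to 30.3 in metestrus and 16.3 to 42.4 in diestrus, so estrus and proestrus overlapped. Of the 5 tested genes 1 rose into estrus, 2 were lower in metestrus than in estrus and 3 lower in diestrus than in estrus. The gene that rose was Mmp9, a matrix protease stored in neutrophils and also made by other cells, which averaged 2.47 ± 0.961, 13.4 ± 0.980, 2.79 ± 1.89 and 5.06 ± 2.24 CPM. Outside estrus the means of Mmp9 lay under the filter level of 5.42 CPM, so Mmp9 was tested mainly through its estrus values. Its change was 2.39 ± 0.50 into estrus (adjusted p = 0.00644, kept in every leave-out fit) and -2.20 from estrus to metestrus (adjusted p = 0.0186). Of 9 eosinophil genes 1 was tested and 0 were called, and Epx was at 0 in every library. Of 10 dendritic cell genes 2 were tested and 0 called, and Ccr7 was at 0 throughout.

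Of 7 mast cell genes 5 were tested, and Cma1 was higher in metestrus than in proestrus (2.06 ± 0.47, adjusted p = 0.0274, lost in 4 of 12 leave-out fits). The sum of that list ran from 17.1 to 24.9 CPM in proestrus, 32.2 to 51.8 in estrus, 49.3 to 70.3 in metestrus and 27.4 to 73.6 in diestrus. Of 8 T cell genes 1 and of 8 natural killer cell genes 4 were tested, and 0 of either list were called. Of 6 B cell genes 3 were tested, and Ighm, the heavy chain of immunoglobulin M, rose from proestrus to estrus (1.52 ± 0.25, adjusted p = 0.00184). Cd79b, a chain of the B cell receptor, averaged 7.99 ± 2.93, 5.66 ± 2.31, 1.90 ± 1.18 and 1.40 ± 0.794 CPM and was higher in proestrus than in diestrus (2.48 ± 0.58, adjusted p = 0.0176, lost in 3 of 12 leave-out fits). The full B cell sum ran from 37.2 to 67.0, 96.1 to 356, 61.2 to 91.8 and 34.5 to 105 CPM from proestrus through diestrus. Estrus thus stood above proestrus without overlap. Without Ighm and Jchain the order differed, with sums from 7.01 to 13.2 CPM in proestrus, 5.15 to 11.8 in estrus, 3.11 to 5.37 in metestrus and 1.7 to 5.44 in diestrus. The natural killer sum was 103 CPM in 1 metestrus sample, replicate 7, and between 12.0 and 36.1 in all other samples.

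Among the tissue lists, all 8 epithelial genes passed the F test, with sums of 1721 to 2455 CPM in proestrus, 1810 to 2283 in estrus, 946 to 1509 in metestrus and 807 to 1076 in diestrus, and 7 of them were lower in diestrus than in estrus. The sums of proestrus and estrus overlapped for the epithelial and smooth muscle lists, but not for the stromal list or the members. Of 9 stromal genes 1 rose and 3 fell into estrus, with sums of 13818 to 14073 CPM in proestrus, 11040.2 to 11587 in estrus, 7210.4 to 15489.6 in metestrus and 9552 to 13211 in diestrus. Of 7 smooth muscle genes 3 rose into estrus and 0 fell, with sums of 6356 to 8975, 8484 to 10899, 5395 to 7584 and 6316 to 6644 CPM from proestrus through diestrus. Of 6 endothelial genes and of 3 tested red blood cell genes 0 were called. The part of these lists in the changes of the members was not tested.

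**Figure D4:**
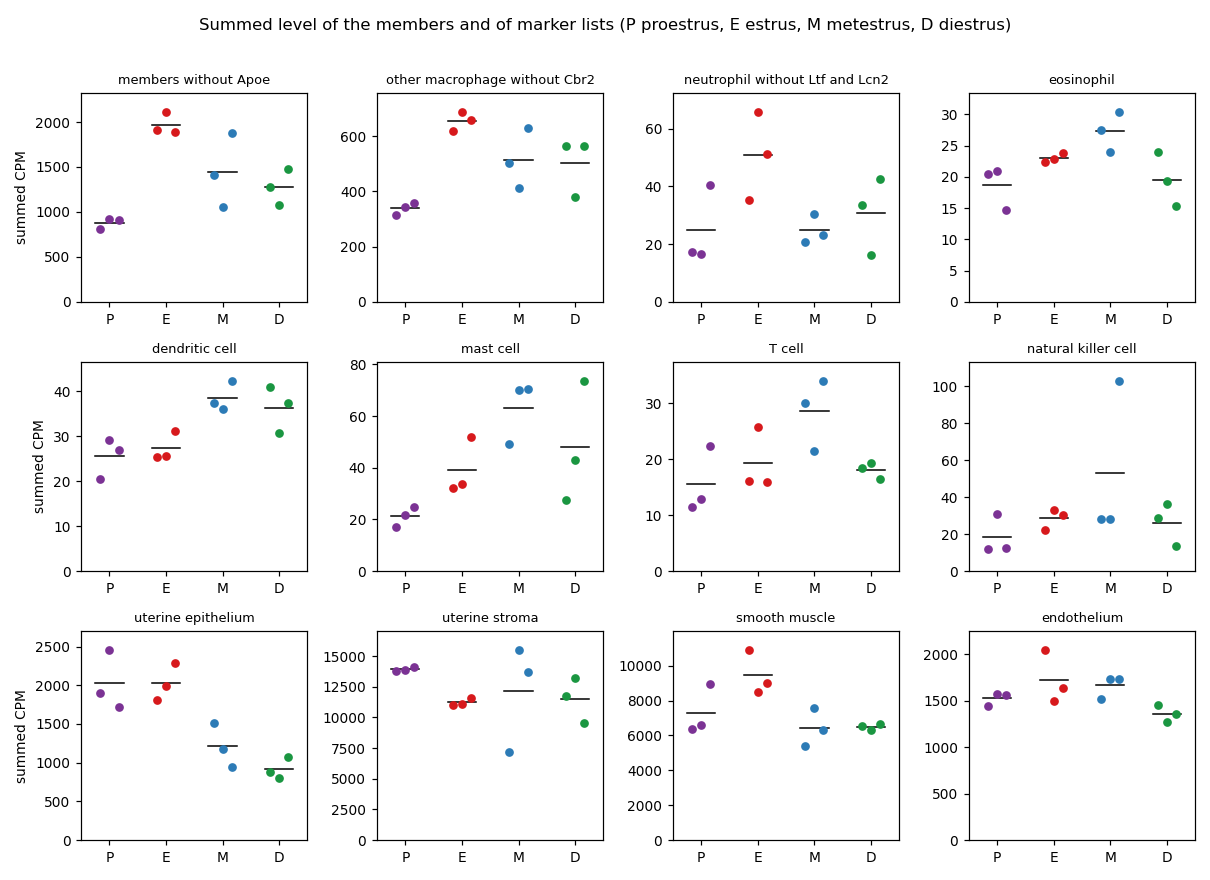
Points are the summed CPM of the members without Apoe and of 11 marker lists in each of the 12 samples, with the stage mean as a line, on axes that start at 0. The members without Apoe and the other macrophage genes without Cbr2 have proestrus below estrus without overlap. The stromal sums have proestrus above estrus without overlap, and the epithelial and smooth muscle sums of these stages overlap. The natural killer sum has 1 high metestrus sample.

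Some members share transcript sequence with another gene, which makes the split of their counts uncertain. The last 500 bases of Csf1r, where 3′ tags fall, are shared in full with Hmgxb3, which overlaps it on the opposite strand and was given between 5.21 and 14.21 counts per library. With both genes summed, the changes of Csf1r into estrus (1.32, adjusted p = 0.000596) and from estrus to diestrus (-0.89, adjusted p = 0.00303) kept their calls. Csf1r was given between 88.0 and 319.0 counts per library, so this sum could hardly differ from Csf1r alone. It cannot tell which of these genes the shared tags came from. Lyz2 shares 32.8% of its 31-base words with Lyz1, which had at most 17.11 counts in a library. Itgam shares 75.2% with the overlapping gene model Gm49368, but 1.06% of its last 500 bases, and Gm49368 had at most 3.45 counts. Fcgr3 and Fcgr2b share 18.4% and 10% of their words with each other and none in the last 500 bases. Stab1 shares 17.4% of its last 500 bases with Nt5dc2, and Csf3r 27.0% of its words with AC105061.2, which had 0 counts in every library.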

How the data were processed

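The deposited tables hold estimated counts per transcript, 1 table per uterus sample. The authors made these estimated counts with tools that the submitters' processing notes list as FastQC, kallisto and DESeq2, with no order or role. The transcript set, genome build and strand setting are not given in the sources used here. Transcript identifiers were matched to GENCODE M21 (97.7% of 119414 matched, and the unmatched ones held 0.619% to 0.774% of the counts) and estimated counts were summed per gene and rounded.

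Genes were filtered with edgeR's filterByExpr by stage, scaled with TMM and fitted with 1 coefficient per stage over all 12 samples (edgeR 4.0.16, limma 3.58.1, R 4.3.3). Tests were two-sided quasi-likelihood tests with Benjamini-Hochberg adjustment over 12052 genes, and an adjusted p under 0.05 was a call. The approximate 95% intervals are normal limits on the SE and are narrower than the limits of these tests. Shared sequence was measured as the percentage of 31-base words of the most counted transcript found in another gene, with partners named from 3%. Promoter sequences come from RefSeq (GRCm38.p6), and gene positions from GENCODE M21.

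All 34 members are given a value. Values in every sample are given for the 14 with the smallest F test p and for Csf1r, Adgre1, C1qa, S100a8 and S100a9, and up to 3 called genes with the smallest p are named from each other list; Csf1 and the genes named as at 0 were chosen after their values were seen. The members and lists were chosen with earlier results of these data known. The alternatives were other size factors, no filter or a mean of at least 20 counts, DESeq2 1.42.0, each sample left out, 2 stages alone, a replicate block, and Csf1r summed with Hmgxb3. Depth ran from 1652841 to 2200563 counts per sample, and 3 counts were taken as the floor.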

Additional observations from a re-analysis of the deposited data

How the results depend on the processing

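Numbers of members called moved by more than 1.5 times as follows. Metestrus against estrus gave 3, but 7 without the filter on low counts, 1 with these stages alone, and 1 to 7 when samples were left out. Diestrus against metestrus gave 0, but 2 without the filter and 1 with DESeq2. Proestrus against diestrus gave 10, and 4 to 10 when samples were left out. Metestrus against proestrus gave 7, but 11 without the filter, 1 with these stages alone, and 1 to 13 when samples were left out. The cause was not tested. The other counts stayed within 1.5 times: 22 in the F test (15 to 24 with samples left out), 21 for estrus against proestrus (14 to 23) and 12 for diestrus against estrus (8 to 15). Estrus and diestrus share the title numbers 3, 4 and 5. A replicate block on these numbers gave 15 members, as did the same 6 samples without it. Same-numbered samples did not deviate together over all genes (correlations of -0.043, 0.013 and -0.017). The labels do not say what the numbers mean. These correlations cannot decide whether the numbers mark a pairing that bears on some genes only. No other stages share 2 numbers. Over 53 calls of a member in a comparison, 28 were kept under every alternative, and 132 of 636 leave-out values and 16 of 329 other values lost the call. No call changed sign. The median log2 changes moved beyond their spread 2 times, both without metestrus replicate 7: to -0.69 for metestrus against estrus and to 0.05 for diestrus against metestrus. Depth limits Cd163, Msr1, Csf3r, S100a8 and S100a9, and also Itgam and Folr2 in diestrus and Spi1 and Itgb2 in proestrus. Their values there lie near the floor of 3 counts.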

Other observations

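Itgam and Itgb2 encode the chains of 1 integrin, complement receptor 3. Itgam averaged 13.8 ± 2.64, 24.4 ± 10.8, 10.5 ± 3.37 and 2.69 ± 1.35 CPM from proestrus to diestrus (SD, n = 3). Itgb2 averaged 3.06 ± 0.466, 11.6 ± 1.88, 8.67 ± 5.58 and 8.31 ± 4.42 CPM, with the lowest mean of Itgam in diestrus and that of Itgb2 in proestrus. The difference between the changes of the 2 genes was not tested. Lyz1, the sister gene of Lyz2, had between 0 and 1.11 counts in the proestrus samples and estrus replicate 3. It had 7.42 and 5.35 in estrus replicates 4 and 5, and 4.19, 2.11 and 17.11 in metestrus replicates 5, 6 and 7. The diestrus samples had between 11.65 and 17.05. Lyz2 shares 32.8% of its words with Lyz1, so these few counts may belong to either gene.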
